A study of Mus musculus with 8 samples.

Results

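The genes described here are 9 grouped as structural and metabolic genes of radial glia, the stem cells of the embryonic brain. The 9 are Nes, Vim, Fabp7, Slc1a3, Prom1, Ptn, Ddah1, Msi1 and Tnc. They were taken by symbol from the deposited table, where all 9 were found among 12843 listed genes. All 9 reached a mean of at least 1 RPKM (reads scaled to gene length and library size) in either genotype and were among the 11395 genes tested. RNA came from the lateral ganglionic eminence (LGE) of E12.5 mouse embryos, a swelling of the ventral forebrain that later forms the striatum. Wild type and Gsx2 KO had 4 libraries each; the KO genotype was Gsx2EGFP/Gsx2RA, from crosses of carriers of each allele, and its libraries are called null-labelled. Gsx2 is a homeobox transcription factor of LGE progenitors, and the comparison asked which RNAs differ when both of its copies are mutated. Whether each library came from 1 embryo or several is not stated, so p-values measure the spread between these samples.

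Radial glia span the wall of the embryonic brain from the ventricle to the pial surface, divide at the ventricle, and give rise to neurons and later to glia. Their long processes are held up by intermediate filaments, their ventricular ends carry specialised membrane, and they take up glutamate and fatty acids much as astrocytes do later. The same genes are used to recognise radial glia in every region of the embryonic forebrain, and several are also active in blood vessel cells and mesenchyme. In whole tissue, fewer cells of a type and less RNA per cell cannot be told apart.

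Gsx2 RNA stood at 21.4 to 26.0 RPKM in the wild-type libraries and at 49.1 to 64.2 RPKM in the libraries labelled null. The labels do not give the structure of the alleles, so this level cannot check the genotype labels. The libraries held 16031458 to 18019214 reads in listed genes. Libraries are called by the number in their column names (1, 2, 7 and 8 for wild type, 5, 6, 11 and 12 for null-labelled), which is in no label, and values are given in that order. Of 11 markers fixed for the LGE all were detected, with a summed level of 679 to 819 RPKM in wild type against 221 to 287 RPKM in the null-labelled group. All 12 cell cycle genes on a fixed list fell, from summed levels of 813 to 891 RPKM to 558 to 658 RPKM. Of 11 neuronal genes tested 8 rose and 0 fell, from sums of 1014 to 1188 RPKM to 1225 to 1436 RPKM. The part of these shifts in the members' values was not tested.

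Of the radial glia genes, Slc1a3 and Vim rose (adjusted p under 0.05 in limma, over all 11395 genes tested), 0 members fell and 7 did not pass. The number higher was 1 without any 1 of libraries 2, 6, 7, 8, 11 or 12, and 5 with the set of column numbers (1 to 6 or 7 to 12) as a covariate. Of all genes tested, 28.5% passed, 13.8% as higher and 14.6% as lower, beside 22.2% of members (2 of 9) as higher. The log2 fold change, null-labelled minus wild type on the scale of log2(RPKM + 1), was above 0 for 8 of 9 members, as it was for 46.8% of all genes tested. The members' median was 0.20, beside -0.01 over all genes tested. Together the members took 0.410% to 0.423% of the reads in each wild-type library and 0.455% to 0.493% in each null-labelled library. That share weighs each gene by its reads. Nes (17531 to 24756 reads a library) and Vim (17811 to 25187) had the most, and Tnc (286 to 625) the fewest.

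**Figure D1:**
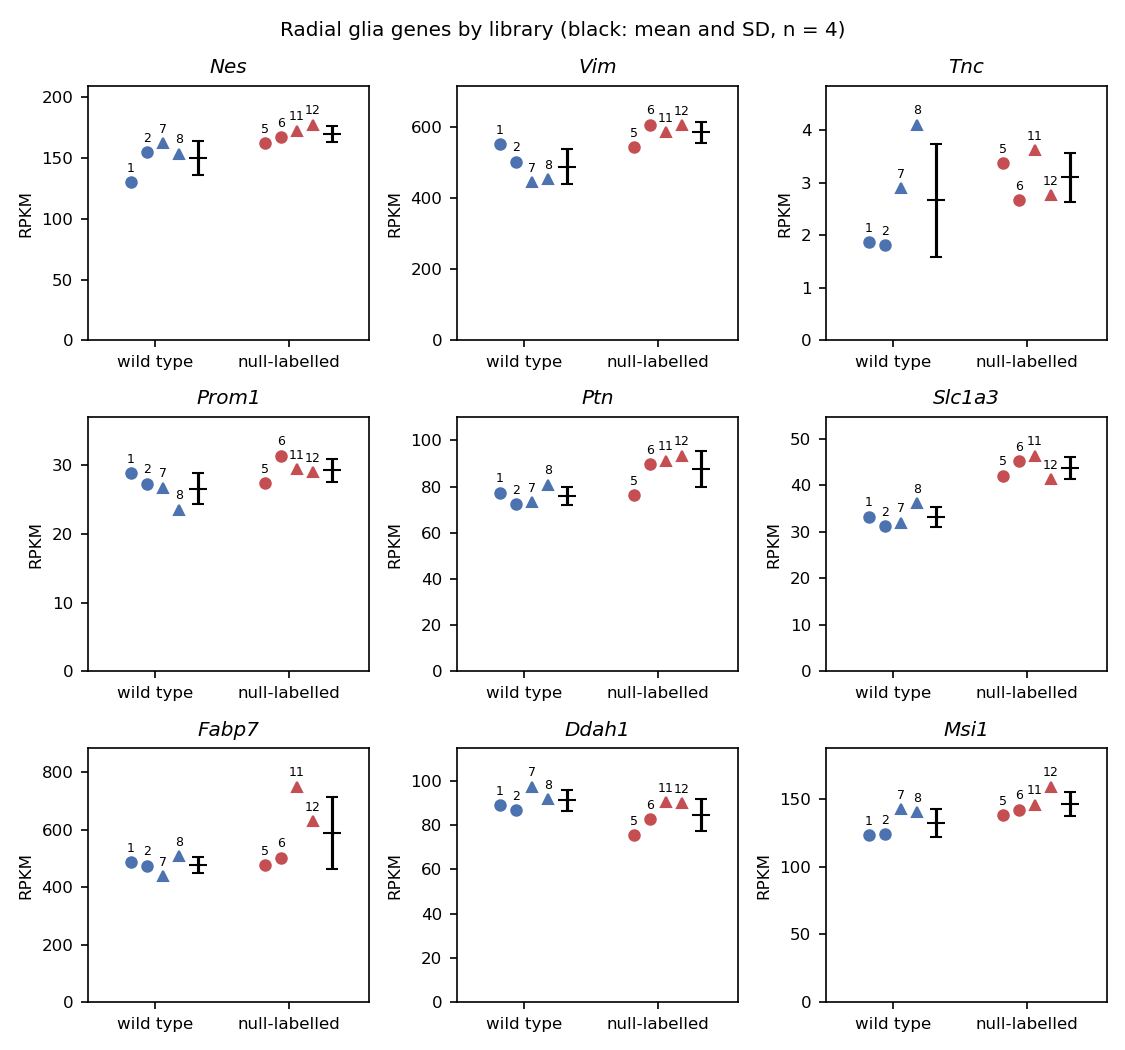
RPKM of each radial glia gene (vertical axis, from 0) in the 4 wild-type (blue) and 4 null-labelled (red) libraries, each point marked with its library number; circles are libraries 1 to 6, triangles 7 to 12, and black bars the mean and SD. Slc1a3 is separate by genotype, with 41.4 RPKM or more in every null-labelled library and 36.2 RPKM or less in every wild-type library.

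Slc1a3 encodes GLAST, the glutamate and aspartate transporter of radial glia and astrocytes. Slc1a3 stood at 33.3, 31.2, 31.99 and 36.2 RPKM in wild type and at 42.1, 45.2, 46.4 and 41.4 RPKM in the null-labelled group. Every null-labelled library lay above every wild-type library. The means were 33.2 ± 2.21 and 43.8 ± 2.41 RPKM (SD, n = 4 each). On the log2 scale the difference was 0.39 ± 0.06 (SE, limma adjusted p = 0.00102, 95% interval 0.26 to 0.52). The rise was about as large among libraries 1, 2, 5 and 6 alone (0.43 ± 0.07, limma adjusted p = 0.0140) as among libraries 7, 8, 11 and 12 alone (0.35 ± 0.08, limma adjusted p = 0.0251). Each library held 2922 to 4570 reads of the gene. Slc1a3 (ENSMUSG00000005360.14) lies on the minus strand of chromosome 15 from 8634124 to 8710764 in GRCm38.

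Vim encodes vimentin, the intermediate filament protein of radial glial processes, and had the highest wild-type mean of the members. Vim stood at 551, 502, 445 and 452 RPKM in wild type and at 543, 606, 586 and 604 RPKM in the null-labelled group. The genotypes overlapped, because wild-type library 1 lay above null-labelled library 5. The means were 488 ± 49.2 and 585 ± 29.6 RPKM, a log2 fold change of 0.27 ± 0.08 (SE, n = 4 each, limma adjusted p = 0.0347). The call was lost without any 1 of libraries 2, 6, 7, 8, 11 or 12 (limma adjusted p = 0.0587 to 0.107). Among libraries 1, 2, 5 and 6 alone the log2 fold change was 0.12 ± 0.09 (limma adjusted p = 0.385). Among 7, 8, 11 and 12 alone it was 0.41 ± 0.04 (limma adjusted p = 0.00225). These values differed by 0.28 ± 0.10, which did not pass (limma adjusted p = 0.215). Vim (ENSMUSG00000026728.9) lies on the plus strand of chromosome 2 from 13573927 to 13582826.

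Nes encodes nestin, the other intermediate filament protein that marks neural progenitors. Nes stood at 130, 155, 162 and 153 RPKM in wild type and at 162, 167, 172 and 177 RPKM in the null-labelled group. The genotypes did not overlap, but the closest libraries, wild-type 7 at 162.2 and null-labelled 5 at 162.3 RPKM, were nearly equal. The means were 150.2 ± 13.8 and 169.8 ± 6.53 RPKM, and the log2 fold change of 0.18 ± 0.07 (n = 4 each) did not pass (limma adjusted p = 0.0861). It was 0.11 without library 1, and Nes passed with the set of column numbers as a covariate (limma adjusted p = 0.0465). No overlap with the null-labelled libraries above was found for 2 of 9 members, Nes and Slc1a3, and for 14.5% of all genes tested (30.9% in either direction). In wild-type library 1 Nes was at its lowest and Vim at its highest, so that the log2 ratio of Vim to Nes was 2.07 there and 1.45 to 1.69 in the other wild-type libraries. In the null-labelled libraries that ratio ran from 1.73 to 1.85.

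Fabp7 encodes BLBP, the brain lipid-binding protein, which carries fatty acids in radial glia. Fabp7 stood at 488, 475, 439 and 508 RPKM in wild type and at 478, 503, 750 and 630 RPKM in the null-labelled group. Only null-labelled libraries 11 and 12 stood above the wild-type range, and libraries 5 and 6 lay inside it. The means were 478 ± 28.9 and 590 ± 126 RPKM, and the log2 fold change of 0.28 ± 0.13 (n = 4 each) did not pass (limma adjusted p = 0.142, 95% interval -0.01 to 0.58). Without library 11 it was 0.16 (limma adjusted p = 0.288). The log2 fold change was 0.03 ± 0.08 among libraries 1, 2, 5 and 6 alone (limma adjusted p = 0.83) and 0.54 ± 0.10 among 7, 8, 11 and 12 alone (limma adjusted p = 0.0148). The difference between these values was 0.51 ± 0.14 (unadjusted p = 0.00603 in limma, adjusted p = 0.178), so it did not pass either. That test was chosen after the values were seen. In the authors' deposited table Fabp7 has a log2 fold change of 0.31 with an FDR of 0.0120, and Ptn one of 0.21 with an FDR of 0.00829. With Slc1a3 and Vim, 4 of 9 members have an FDR under 0.05 and a higher level in the authors' deposited table, beside 14.7% of its genes.

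**Figure D2:**
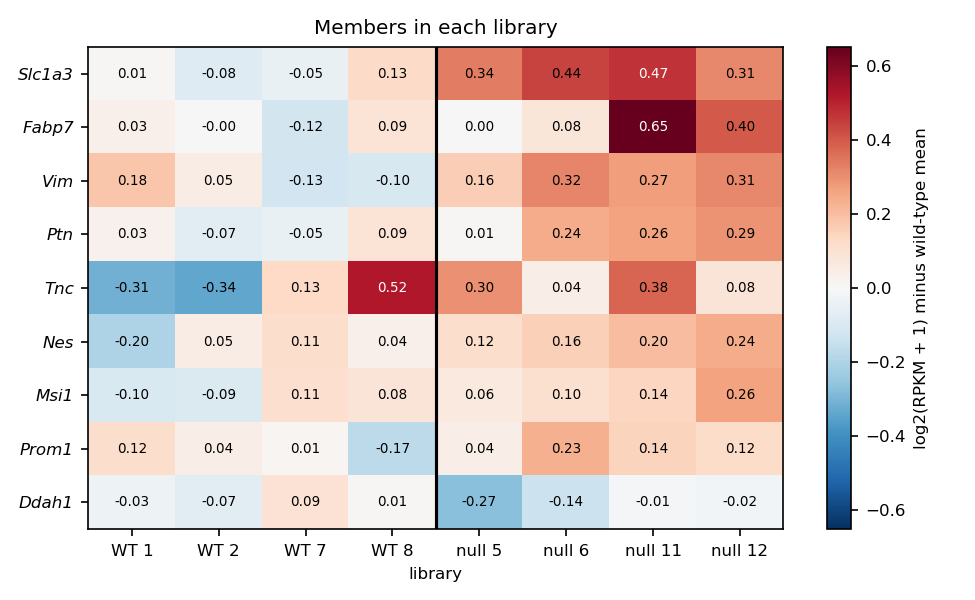
log2(RPKM + 1) of each member in each library minus the wild-type mean of that gene (colour and printed value; red above, blue below), with wild-type libraries left of the line and null-labelled libraries right of it. Fabp7 stands apart in null-labelled libraries 11 and 12 (0.65 and 0.40), Tnc varies as much within wild type as between genotypes, and Ddah1 is below its wild-type mean in every null-labelled library.

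The start sites of the 3 members whose differences were the greatest on the log2 scale are shown with short motifs of factor families known in these progenitors, since Gsx2 is itself a homeodomain protein. Sequences are RefSeq windows of 300 bases around the RefSeq start on GRCm38.p6, which for Vim lies inside the gene as GENCODE bounds it, written 5′ to 3′ on the strand of the gene. Capitals mark matches on either strand to TAATTA or TAATTG (homeodomain), TGGGAA (Rbpj, the Notch effector), or ACAAAG or ACAAT (Sox).
Slc1a3, chr15:8710758-8711057, minus strand: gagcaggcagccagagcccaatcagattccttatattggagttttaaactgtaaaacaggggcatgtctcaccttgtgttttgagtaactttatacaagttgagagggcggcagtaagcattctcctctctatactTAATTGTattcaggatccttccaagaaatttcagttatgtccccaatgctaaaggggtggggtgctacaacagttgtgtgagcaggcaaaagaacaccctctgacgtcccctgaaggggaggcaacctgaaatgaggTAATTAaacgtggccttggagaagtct
Vim, chr2:13574061-13574360, plus strand: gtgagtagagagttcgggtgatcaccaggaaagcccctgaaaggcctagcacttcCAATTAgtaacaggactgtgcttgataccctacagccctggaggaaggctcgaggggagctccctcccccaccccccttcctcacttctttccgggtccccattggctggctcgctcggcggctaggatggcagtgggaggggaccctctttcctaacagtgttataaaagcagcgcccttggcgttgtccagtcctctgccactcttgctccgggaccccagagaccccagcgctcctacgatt
Fabp7, chr10:57784673-57784972, plus strand: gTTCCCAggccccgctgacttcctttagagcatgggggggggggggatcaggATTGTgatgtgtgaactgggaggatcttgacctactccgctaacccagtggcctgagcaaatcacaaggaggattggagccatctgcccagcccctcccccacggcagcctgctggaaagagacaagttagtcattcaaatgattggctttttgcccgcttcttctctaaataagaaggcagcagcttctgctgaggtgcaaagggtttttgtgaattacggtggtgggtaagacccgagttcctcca
The Slc1a3 window held 1 TAATTA, 1 TAATTG and 1 ACAAT, the last being the reverse complement ATTGT that overlaps TAATTG. The Vim window held 1 TAATTG, and the Fabp7 window 1 TGGGAA and 1 ACAAT. Among all 32851 windows in the RefSeq table, 5.29% held TAATTA, 8.0% TAATTG, 25.6% TGGGAA, 18.7% ACAAAG and 31.0% ACAAT. Windows were found for 8 of 9 members, all but Msi1; Ddah1 had a match to 0 of the 5 motifs.

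Ptn encodes pleiotrophin, a secreted heparin-binding growth factor made by radial glia. Ptn stood at 77.3, 72.4, 73.3 and 80.8 RPKM in wild type and at 76.3, 89.8, 91.3 and 93.3 RPKM in the null-labelled group. Of the null-labelled libraries, 5 alone lay within the wild-type range. The means were 76.0 ± 3.86 and 87.7 ± 7.72 RPKM, and the log2 fold change of 0.20 ± 0.07 (n = 4 each) just missed the threshold (limma adjusted p = 0.0538). Without library 5 it was 0.27 (limma adjusted p = 0.00740). With the libraries rescaled by median ratio, upper quartile or reads in listed genes it also passed (limma adjusted p = 0.0105 to 0.0231).

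Tnc encodes tenascin-C, a matrix glycoprotein of the stem cell niche, and was the lowest member, with 286 to 625 reads a library. Tnc stood at 1.87, 1.81, 2.89 and 4.10 RPKM in wild type and at 3.37, 2.66, 3.62 and 2.77 RPKM in the null-labelled group. The wild-type spread covered the null-labelled one, and the CV (SD over mean) of 40.4% was the highest of any member in wild type. The means were 2.67 ± 1.08 and 3.10 ± 0.463 RPKM (n = 4 each, limma adjusted p = 0.443), with a log2 fold change of 0.20 (95% interval -0.20 to 0.60). It was 0.10 without library 1, 0.09 without library 2 and 0.37 without library 8. Within libraries 1, 2, 5 and 6 alone it was 0.50 ± 0.12 (limma adjusted p = 0.0390), and within 7, 8, 11 and 12 alone the sign turned, at -0.10 ± 0.16 (limma adjusted p = 0.698). The difference between these 2 values was -0.59 ± 0.22 (limma adjusted p = 0.222).

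Prom1 encodes prominin-1 (CD133), a membrane protein of the ventricular protrusions of neural progenitors. Prom1 stood at 28.9, 27.3, 26.7 and 23.5 RPKM in wild type and at 27.4, 31.4, 29.4 and 29.0 RPKM in the null-labelled group. The genotypes overlapped, and the log2 fold change was 0.13 ± 0.07 (n = 4 each, limma adjusted p = 0.161, 95% interval -0.01 to 0.28). It was 0.08 without library 8.

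Msi1 encodes Musashi-1, an RNA-binding protein of neural stem cells known to repress translation of Numb. Msi1 stood at 123, 124, 142 and 140 RPKM in wild type and at 138, 142, 146 and 159 RPKM in the null-labelled group. Each null-labelled library lay above the wild-type mean, but the ranges overlapped. The log2 fold change was 0.14 ± 0.07 (n = 4 each, limma adjusted p = 0.149, 95% interval -0.01 to 0.29). Msi1 passed with the set of column numbers as a covariate (limma adjusted p = 0.0403).

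Ddah1 encodes the enzyme that breaks down asymmetric dimethylarginine (ADMA), an inhibitor of nitric oxide synthases. It was the only member with a mean below wild type. Ddah1 stood at 89.0, 86.6, 97.3 and 91.6 RPKM in wild type and at 75.4, 82.6, 90.4 and 90.0 RPKM in the null-labelled group. Every null-labelled library lay below the wild-type mean of 91.1 ± 4.59 RPKM, and libraries 5 and 6 lay below the wild-type range. The log2 fold change was -0.11 ± 0.07 (n = 4 each, limma adjusted p = 0.261, 95% interval -0.26 to 0.04). It was -0.06 without library 5.

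**Figure D3:**
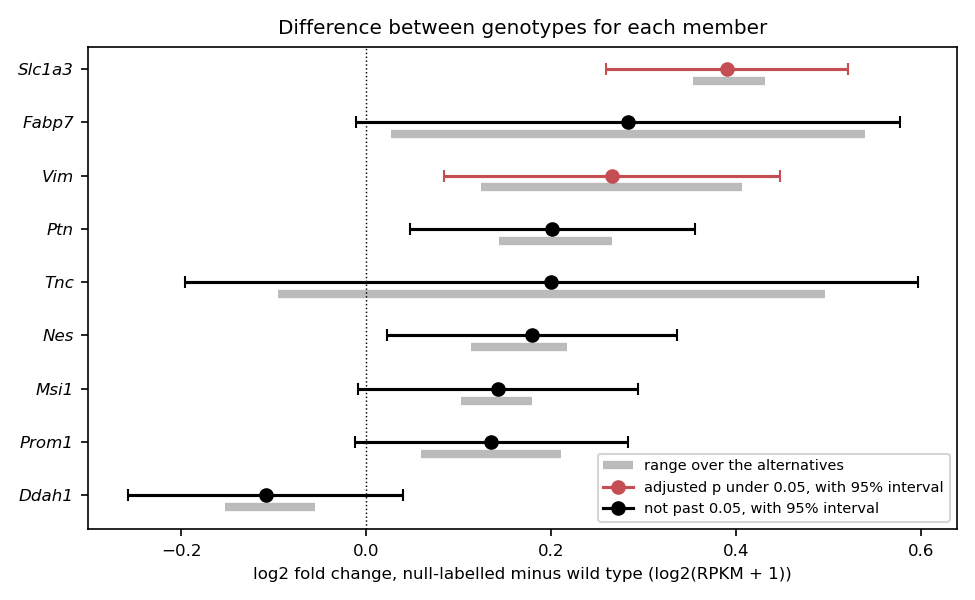
Log2 fold change of each member (horizontal axis, null-labelled minus wild type) with its 95% interval, red where the adjusted p was under 0.05, and below each a grey bar for its range over the alternative fits. The interval of Slc1a3 runs from 0.26 to 0.52, the bars of Fabp7 and Vim are wide, and the bar of Tnc crosses 0.

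Per length, the members fell into an order in wild type that ran over a wide range. Vim (488 RPKM) and Fabp7 (478 RPKM) overlapped across libraries and came first, above 99.9% of listed genes each. Nes (150.2 RPKM) and Msi1 (132 RPKM) also overlapped. Ddah1 (91.1 RPKM), Ptn (76.0 RPKM), Slc1a3 (33.2 RPKM), Prom1 (26.6 RPKM) and Tnc (2.67 RPKM) followed, each separate from its neighbours in every wild-type library. Tnc stood above only 25.4% of listed genes. Among the members, the profiles most like each other over the 8 libraries were those of Nes and Msi1, which differed by a root mean square of 0.07 on the log2 scale after subtracting each wild-type mean. Slc1a3 and Ddah1 were the least alike (0.37).

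Ratios of RPKM + 1 within a library were formed for 5 pairs of genes and compared between genotypes with an exact permutation test, two-sided, whose smallest possible p is 0.0286. Mdk encodes midkine, the other growth factor of the family of Ptn. The log2 ratio of Ptn to Mdk was -0.45, -0.20, -0.50 and -0.26 across wild type, and 0.03, 0.24, -0.06 and -0.15 across the null-labelled group. The genotypes did not overlap, and the difference of 0.37 had p = 0.0286, the smallest the exact test can give (adjusted p = 0.0714 over the 5 ratios). Mdk itself stood at 97.5 ± 10.3 and 87.4 ± 14.5 RPKM (limma adjusted p = 0.325).

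The log2 ratio of Msi1 to Msi2, its paralogue, was 1.93, 1.90, 1.78 and 1.85 across wild type, and 1.98, 2.01, 2.23 and 2.21 across the null-labelled group. These did not overlap either, with a difference of 0.24 (exact permutation p = 0.0286, adjusted p = 0.0714). Msi2 stood at 35.7 ± 4.37 and 33.2 ± 1.92 RPKM (limma adjusted p = 0.407). Ddah1 to Ddah2, the other gene for an enzyme of this kind, had a log2 ratio of -0.51 ± 0.13 in wild type against -0.73 ± 0.08 in the null-labelled group (n = 4 each, exact permutation p = 0.0571, adjusted p = 0.0952). Vim to Nes differed by 0.09 (exact permutation p = 0.571) and Slc1a3 to Fabp7 by 0.11 (p = 0.457). Vim to Nes was 0.21 without library 1 and 0.0063 without library 7, and Slc1a3 to Fabp7 was 0.02 without library 6 and 0.20 without library 11. The sign of Vim to Nes turned among libraries 1, 2, 5 and 6 alone (-0.086), as did that of Slc1a3 to Fabp7 among 7, 8, 11 and 12 alone (-0.18). No ratio passed 0.05 after adjustment. As even the smallest possible p gave an adjusted p of 0.0714, this test had little room to pass one.

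**Figure D4:**
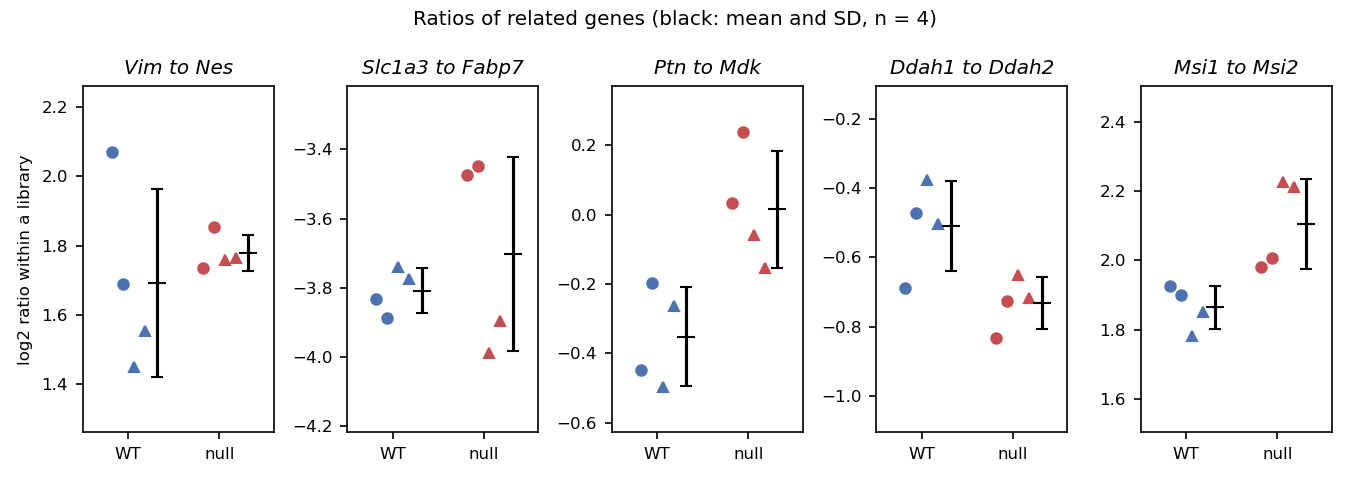
Log2 ratio of the RPKM + 1 of paired genes within each library (vertical axes, each spanning 1 log2 unit), wild type in blue and null-labelled in red; circles are libraries 1 to 6, triangles 7 to 12, black bars mean and SD. Ptn to Mdk and Msi1 to Msi2 are higher in all 4 null-labelled libraries than in any wild-type library, and Slc1a3 to Fabp7 splits the null-labelled libraries into 5 and 6 against 11 and 12.

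Genes that work with the members did not all move in the same direction. Among glutamate uptake and glutamine genes 1 of 7 rose and 1 fell (median log2 fold change -0.07). Slc1a2, which encodes GLT-1, the glutamate transporter that takes over in astrocytes, rose from 4.87 ± 0.226 to 8.59 ± 1.46 RPKM (0.70 ± 0.10, limma adjusted p = 0.000649), a greater difference on the log2 scale than that of Slc1a3. Slc1a5, a glutamine transporter gene, fell (-0.56 ± 0.17), but no longer passed without any 1 of libraries 1, 6, 7 or 11 (limma adjusted p = 0.0549 to 0.0777), which left 0 lower; without library 1 the number higher was 2.

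Of 9 fatty acid binding and lipid genes 2 rose and 0 fell (median 0.05). Lpl, which encodes lipoprotein lipase, rose from 4.54 ± 0.227 to 5.61 ± 0.501 RPKM (0.25 ± 0.07, limma adjusted p = 0.0165), and Fabp3 from 1.08 ± 0.246 to 1.71 ± 0.288 RPKM (0.38 ± 0.11, limma adjusted p = 0.0239). Fabp3 no longer passed without any 1 of libraries 2, 5, 7 or 12 (limma adjusted p = 0.0598 to 0.0688), which left 1 gene higher. Among 4 tested genes of other intermediate filaments and the nuclear lamina 2 fell and 0 rose (median -0.18). These were the lamin genes Lmnb1 (-0.20 ± 0.07) and Lmnb2 (-0.24 ± 0.07), which are nuclear and in every dividing cell. Lmnb1 no longer passed without any 1 of libraries 1, 2, 5, 6, 7 or 8 (limma adjusted p = 0.0574 to 0.114) and Lmnb2 without 5, 6, 7 or 8 (0.0554 to 0.0649), so that without 5, 6, 7 or 8 none of the 4 passed.

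In the list for the apical membrane, cell polarity and adherens junctions, 2 of 18 rose and 4 fell (median -0.01). Cdh2, which encodes N-cadherin, the junction protein that joins radial glia at the ventricle, rose from 68.3 ± 3.09 to 85.1 ± 2.05 RPKM (0.31 ± 0.05, limma adjusted p = 0.00102). Numbl, a Numb-like adaptor, rose from 15.1 ± 1.70 to 22.4 ± 1.39 RPKM (0.55 ± 0.08, limma adjusted p = 0.000734). Crb1, a Crumbs polarity gene, fell from 2.09 ± 0.277 to 1.47 ± 0.0893 RPKM (-0.32 ± 0.08, limma adjusted p = 0.0158). The number lower was 2 without any 1 of libraries 2, 5 or 7.

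Among 11 genes of the pleiotrophin family, receptors and partners 3 rose and 1 fell (median -0.05). Sdc3, which encodes syndecan-3, a cell surface proteoglycan that binds pleiotrophin, rose from 20.7 ± 1.71 to 38.1 ± 1.42 RPKM (0.85 ± 0.06, limma adjusted p = 1.37e-05). Gpc2, which encodes the proteoglycan glypican-2, rose by 0.37 ± 0.06 and the receptor gene Lrp1 by 0.30 ± 0.07.

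Of 5 tested genes for tenascins, matrix partners and receptors 1 rose and 1 fell (median 0.15). Fn1, which encodes fibronectin, fell from 22.6 ± 0.911 to 15.1 ± 1.69 RPKM (-0.55 ± 0.07, limma adjusted p = 0.000390). Vcan, which encodes the proteoglycan versican, rose by 0.32 ± 0.10 (limma adjusted p = 0.0358), but no longer passed without any 1 of libraries 1, 5, 7, 8, 11 or 12 (0.0563 to 0.0965). Endothelial markers moved in the same direction as Fn1, which vessels also make, with 4 of 8 lower and 0 higher and summed levels of 35.5 to 39.7 RPKM (wild type) and 25.8 to 33.8 RPKM (null-labelled). Their part in the fall of Fn1 was not tested. Of 4 tested genes of ADMA and nitric oxide 0 passed in limma (0 at an unadjusted p under 0.05). Ddah2 stood at 130.4 ± 9.98 and 140.9 ± 6.08 RPKM. Prmt1, which makes ADMA, stood at 197 ± 9.91 and 182 ± 19.1 RPKM. Nos1, a nitric oxide synthase gene of the list, had means of 0.26 ± 0.086 and 0.56 ± 0.096 RPKM. It was below the filter of 1 RPKM and was not tested.

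Msi1 had a log2 fold change of 0.14, which did not pass (limma adjusted p = 0.149). Other RNA-binding proteins of progenitors fell in 4 of 8 cases with 0 rises (median -0.15), beside 14.6% of all genes tested as lower. Qk (-0.25 ± 0.05, limma adjusted p = 0.00334), Igf2bp3 (-0.25 ± 0.05, limma adjusted p = 0.00342) and the splicing repressor gene Ptbp1 (-0.23 ± 0.06, limma adjusted p = 0.0188) were the 3 with the smallest p. Ptbp1 lost its call without library 7 (limma adjusted p = 0.0577), when 2 genes of the list passed as lower.

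Of the 16 transcription factors of radial glia 6 rose and 7 fell (median -0.00). With 1 library left out, 5 to 7 rose and 5 to 6 fell. Sox2, which keeps neural progenitors undifferentiated, fell from 175 ± 2.42 to 105 ± 9.35 RPKM (-0.74 ± 0.06). Hes5, a Notch target, fell from 61.6 ± 4.38 to 41.0 ± 3.36 RPKM (-0.58 ± 0.07). Nfib, a factor of glial differentiation, rose from 21.3 ± 2.05 to 34.3 ± 3.27 RPKM (0.67 ± 0.08). Among 15 tested genes of the astroglial lineage 4 rose and 6 fell (median -0.18). Hopx, known from outer radial glia in the human cortex, rose from 1.31 ± 0.648 to 3.62 ± 0.716 RPKM (1.02 ± 0.18, limma adjusted p = 0.00220). Ndrg2, a gene of astrocytes, fell from 8.26 ± 1.66 to 4.79 ± 0.744 RPKM (-0.67 ± 0.13, limma adjusted p = 0.00355). The number higher was 2 without any 1 of libraries 2, 6, 7, 8, 11 or 12.

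**Figure D5:**
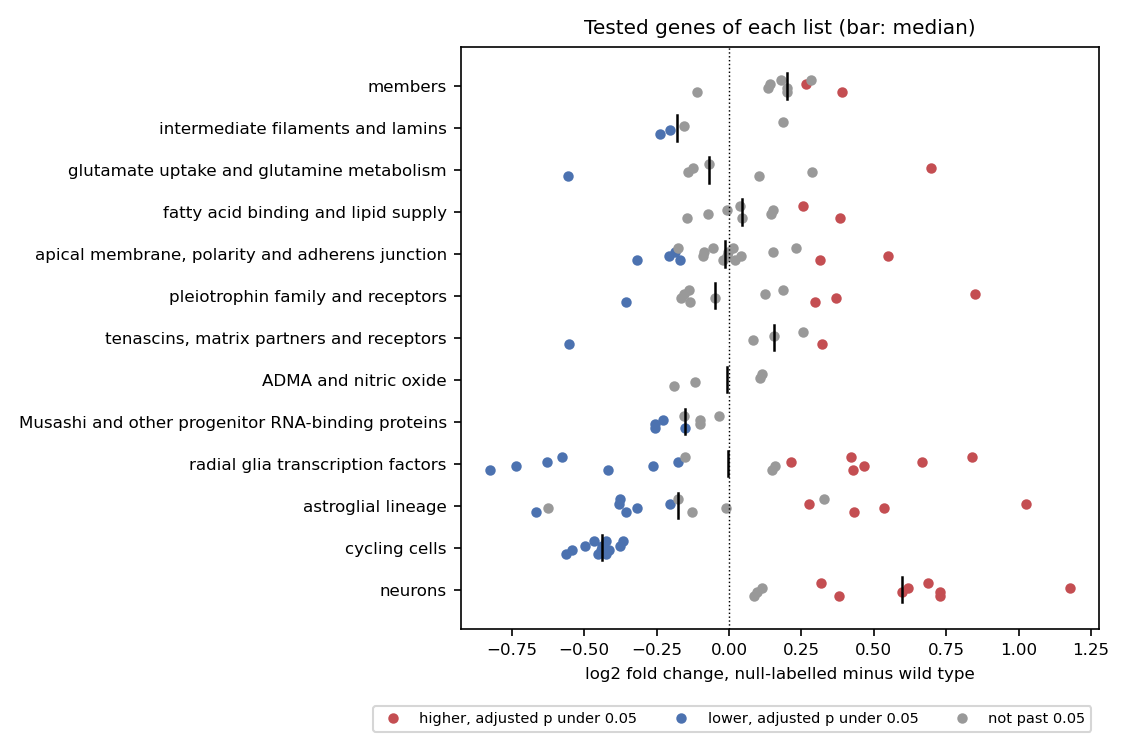
Log2 fold change (horizontal axis, null-labelled minus wild type) of each tested gene of the lists, one row a list; red and blue points passed as higher and lower, grey points did not pass, and bars are medians. The members lie mostly right of 0 with a median of 0.20, cell cycle genes lie left (-0.44) and neuronal genes right (0.60), and radial glia transcription factors spread to both sides.

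Markers of other cell types that could be in the dissected tissue were also summed. Of 6 pericyte markers listed, 2 of 4 tested fell and 0 rose, with sums of 29.2 to 33.1 RPKM in wild type against 25.2 to 27.6 RPKM in the null-labelled group, but without any 1 of libraries 5, 7, 8 or 12 none fell. Of 8 meningeal and mesenchymal markers 5 were listed and 3 tested, with 0 past the threshold in limma (0 at an unadjusted p under 0.05) and sums of 3.32 to 4.14 RPKM in wild type. The sum was 10.7 RPKM in null-labelled library 6 and 3.39 to 3.86 RPKM in the other null-labelled libraries, and Lum had 0 reads in at least 1 library. Without library 6 the log2 fold change of Slc1a3 was 0.37 (limma adjusted p = 0.00383) and that of Vim 0.25 (limma adjusted p = 0.0824). Microglial markers summed to 10.9 to 14.5 and 12.7 to 17.7 RPKM, with 1 of 7 tested higher and 0 lower (2 higher without library 6). Blood markers, mainly embryonic haemoglobin genes, summed to 1145 to 2013 and 1067 to 1559 RPKM, with 0 of 6 past the threshold in limma (0 at an unadjusted p under 0.05).

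For the members that passed, the genes with the most similar profiles over the 8 libraries were taken from 7980 named genes with a mean of at least 5 RPKM. These profiles hold the difference between genotypes. Fold changes near those of the members therefore followed from the choice and are no separate result. Map2k6, a stress-signalling kinase gene, and Ctnnd2, which encodes delta-catenin, were closest to Slc1a3, with root mean square differences of 0.05 and 0.06 on the log2 scale. Their log2 fold changes were 0.39 ± 0.07 and 0.37 ± 0.05 (limma adjusted p = 0.00203 and 0.000346). Hspa4l, a heat shock protein gene, and Oxa1l, which encodes a mitochondrial insertase, were closest to Vim (0.05 each). Their log2 fold changes were 0.28 ± 0.07 and 0.26 ± 0.07 (limma adjusted p = 0.0125 and 0.0197), and Oxa1l no longer passed without any 1 of libraries 7, 8 or 11 (limma adjusted p = 0.0502 to 0.0572).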

How the data were processed

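The deposited file lists 12843 genes. Its RPKM values were made by the authors, per the file headers. So were a log2 fold change, a mean log2 CPM, an unadjusted p-value and the FDR, per the file headers. STAR, featureCounts and edgeR, with the build mm10, are named in the submitters' processing notes; no source used here gives their versions, the annotation or the strand setting. Per the labels' protocols, polyadenylated RNA was made into stranded libraries and read as single ends of 51 bp.

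Column names (WT, or Germline for the libraries labelled null, as the series title names a germline knock-out) show the genotype but not the sample; 0 columns went unused. With limma 3.58.1 (R 4.3.3), a linear model of genotype was fitted to log2(RPKM + 1), using its intensity trend. P-values were two-sided, with Benjamini-Hochberg adjustment over 11395 genes with a mean of at least 1 RPKM in either genotype (1448 were not tested). The design had allowed for counts, and as the table holds RPKM the form set out for RPKM was used. The threshold was an adjusted p of 0.05. The fit was tested on simulated data. Adding 1 understates differences of genes with low RPKM.

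RPKM steps gave whole reads for 100% of genes, within 1e-06 of a read, widened for genes with many reads. These set the depth and the members' share of reads. They entered the alternatives of limma voom and of scaling to reads in listed genes. The scaling behind the RPKM differed from reads in listed genes by a factor of 0.993 to 1.05 relative to library 1. Of the genes that GENCODE M21 (GRCm38) places over a member, 0 are in the table, so reads of overlapping genes could not be set beside them. Members, lists and tests were chosen with earlier results of these data known. Named genes were Gsx2, the members, their partners in ratios, for each pathway list up to 3 past the threshold, taken by adjusted p (or the 2 most abundant where none passed), and the 2 closest profiles for each member past the threshold. Of these, 1 is not reported here. Lum and Nos1, outside that rule, were chosen after their values were seen. Alternatives were other pseudocounts, filters, scalings and fits, each library left out, and each set of column numbers alone. Scaling to reads in listed genes, the test between the sets and the ratios within each set were added after seeing the data.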

Additional observations from a re-analysis of the deposited data

How the results depend on the processing

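Over 20 alternatives for each member (19 for Tnc), the direction held in all but 1 of 179 values: Tnc was at -0.10 among libraries 7, 8, 11 and 12 alone. Slc1a3 passed in all 20, with log2 fold changes of 0.35 to 0.43. Vim lost its call in 7, and the cause was not tested. Ptn gained one in 7, and Fabp7, Nes, Msi1 and Tnc in 1 each. The number of members past the threshold as higher was 2 as reported, 1 to 3 leaving out 1 library, 4 among libraries 7, 8, 11 and 12 alone, and 5 with the set of column numbers as a covariate. Of all genes, 753 passed as higher among libraries 1, 2, 5 and 6 alone against 1574 in all 8, and 1052 passed as lower among 7, 8, 11 and 12 alone against 1668. Of the genes past the threshold, 48.6% were higher with all libraries, 38.6% among 1, 2, 5 and 6 alone and 64.5% among 7, 8, 11 and 12 alone. Median ratio scaling shifted the median of all genes by 0.02. The log2 factors that it divided out were 0.065, -0.0037, -0.0007 and -0.0079 across wild type. Across the null-labelled group they were -0.064, -0.038, 0.032 and 0.035, so they differed between libraries 5 and 6 and libraries 11 and 12. The part of these factors in the differences between the sets was not tested. Among the other named genes, Msi2 turned in 1 alternative, to 0.10 among libraries 1, 2, 5 and 6 alone. No ratio passed with another pseudocount or 1 library left out, where the exact test again had little room to pass one. Within sets of 2 against 2, an alternative chosen after seeing the data and with no test, Vim to Nes turned to -0.086 and Slc1a3 to Fabp7 was 0.40 among libraries 1, 2, 5 and 6 alone. Slc1a3 to Fabp7 turned to -0.18 among 7, 8, 11 and 12 alone, and Msi1 to Msi2 was 0.082 and 0.40 in the sets. No paired analysis was possible because the columns carry none of the replicate numbers of the titles. Fabp3 rests on 12 to 29 reads a library, and Tnc on 286 to 625.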
